A study of Mus musculus with 107 samples.

Results

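The genes described here were 10 of 12315 genes tested in mouse liver: the sterol synthesis enzymes Mvk, Mvd, Idi1, Sqle, Lss, Msmo1, Sc5d and Dhcr7, and 2 genes of sterol control, Insig1 and Stard4. They were named as enzymes and targets of the factor SREBP2, with earlier results of these data known, and were measured by 11 probes, 2 of them for Lss. The p-values below therefore do not test relations that were picked blind to these data. All mice were females of an F2 generation with C57BL/6J and DBA/2J as the founding inbred strains, and every mouse ate an atherogenic diet, which raises blood lipids, so there was no control diet. Liver RNA of each mouse was compared on a 2-colour array with a pool to which every sample gave an equal amount of RNA. The study had 111 mice by its labels, and 107 arrays were read here, of which 3 held no values, which left n = 104 mice of a single group, and the age of the mice was not given in the sources used here. With no groups to compare, the comparison was between genes over mice: which sterol genes were high and low in the same animals. Of the 45 pairs among the 10 genes 12 rose and fell together and 4 ran in opposite directions, 3 of the 4 with Sc5d. Of the 12, 9 were not called once mice 20, 25 and 83 were left out. These mice were chosen after their high values in the same genes were seen.

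Cholesterol is built from mevalonate by a chain of enzymes that passes through isopentenyl diphosphate, squalene and lanosterol. SREBP2 is a transcription factor held in the endoplasmic reticulum membrane together with its escort SCAP while sterols are plentiful. When sterols fall it is released, enters the nucleus and raises the genes of the whole chain together with the LDL receptor, and the liver is a main site of this control. INSIG proteins retain the SCAP complex in the membrane, and dietary cholesterol is known to lower the activity of the pathway in the liver.

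SREBP2 acts on promoters together with the factors NF-Y and Sp1, so the stretches upstream of 3 genes are shown: Mvd and Sc5d, which took opposite courses over mice, and Insig1, the regulator. Each stretch is the 250 bases before the annotated start in the RefSeq promoter table of GRCm38.p6, read 5′ to 3′ on the gene's strand, with every match to CCAAT or its complement ATTGG in capitals. Mvd lies on the minus strand (chr8:122443423-122443672), Sc5d on the minus strand (chr9:42264301-42264550) and Insig1 on the plus strand (chr5:28071162-28071411).
Mvd: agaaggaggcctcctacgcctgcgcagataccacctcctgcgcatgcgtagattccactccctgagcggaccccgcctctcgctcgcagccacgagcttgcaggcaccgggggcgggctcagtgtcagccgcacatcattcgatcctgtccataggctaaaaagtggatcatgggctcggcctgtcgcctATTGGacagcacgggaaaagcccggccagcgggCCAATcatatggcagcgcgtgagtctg
Sc5d: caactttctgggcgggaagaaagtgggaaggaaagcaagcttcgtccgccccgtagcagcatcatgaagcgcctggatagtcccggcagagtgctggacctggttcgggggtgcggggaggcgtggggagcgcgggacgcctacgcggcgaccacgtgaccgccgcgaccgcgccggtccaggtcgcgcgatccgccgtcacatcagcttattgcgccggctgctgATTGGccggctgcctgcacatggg
Insig1: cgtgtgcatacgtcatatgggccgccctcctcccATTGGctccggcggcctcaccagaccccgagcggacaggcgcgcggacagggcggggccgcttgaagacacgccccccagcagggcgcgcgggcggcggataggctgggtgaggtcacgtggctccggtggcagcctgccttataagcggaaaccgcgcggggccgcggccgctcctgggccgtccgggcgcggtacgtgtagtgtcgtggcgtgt

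Of the 10 genes, 8 had an entry in that table and Sqle and Stard4 had none. CCAAT, the core of NF-Y sites, was found on either strand in windows of all 8 genes with an entry, against 37.4% of 32851 windows of 300 bases over all genes. The upstream stretch of Mvd held 2 matches, that of Sc5d 1 and that of Insig1 1, while Mvk held 5 and Msmo1 3. GGGCGG, the core of Sp1 sites, was also found on either strand in windows of all 8, against 35.7% of windows. The sterol regulatory element TCACNCCAC, with N any base, was in none of the 8 and in 1.24% of all windows. Dhcr7 has 3 windows and so more chances of a match than a gene with 1, no motif contains another, and a match is a description of letters in a window. Mvd and Sc5d, whose levels ran in opposite directions, both held CCAAT and GGGCGG. Both lacked the searched sterol element, as did all but 1.24% of windows, so its absence does not set them apart.

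The deposited values were read as log10 ratios and are given here as log2 ratios, where 1 is a 2-fold difference from the pool. The log base was not stated, and base 10 was taken because values stop at exactly 2 and -2, a 100-fold ratio. Under base 2 or e each fold given here would be smaller, and correlations would not change. The direction was not settled either: mouse over pool is likely, because the titles name the mouse first. Of 5356 pairs of arrays 7 had an r below -0.3. That count bears on whether arrays share a direction and cannot tell which direction it is. With all signs turned, each level changes sign and high mice become low mice, while ranges and correlations stay. On 18 arrays, of mice numbered 59 to 107, 946 to 1828 probes lay at a limit of 2 or -2, and on the remaining 86 arrays 0 to 496 did. These 18 are called limit-rich arrays and are treated here as a technical batch, although no label names one, and other arrays in that range of mouse numbers are not among them. No RNA was measured again, so noise of the arrays is part of the spread between mice, and precision is set by how many arrays there are. Since each value is a ratio to the pool, the level of a gene is not compared with that of another.

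The genes differed widely in how much they varied. The range between the 5th and 95th percentile of mice was above 2-fold for 8 of the 10, against 46.9% of all genes tested. Sc5d (4.23-fold), Sqle (4.12-fold), Stard4 (4.10-fold) and Insig1 (3.30-fold) ranged widest, and Lss (1.63-fold) and Mvd (1.56-fold) least, while the median over all genes was 1.94-fold. The Lss value is the mean of 2 probes that did not correlate, which narrows its range: probe A alone ranged 2.22-fold and probe B 1.78-fold, and with probe A 9 of the 10 genes would be above 2-fold.

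Mvk, mevalonate kinase, and Mvd, the decarboxylase that makes isopentenyl diphosphate, open the chain. Mvk had a lowest log2 ratio of -2.09 (mouse 71), a median of 0.01 and a highest of 4.67 (mouse 106), over 103 mice because mouse 105 lay at the upper limit. Its spread was set by few arrays: the highest pair, mice 106 and 68, and the lowest pair, mice 71 and 63, were all on limit-rich arrays. Without those arrays its range fell from 2.24-fold to 1.4-fold. Mvd ran from -0.38 (mouse 155) over a median of -0.05 to 0.74 (mouse 138), with mice 25 (0.65) and 20 (0.64) next, and no mouse was 2-fold from the median. Idi1, which interconverts the isoprene units, ran from -0.69 over a median of -0.20 to 1.67 (mouse 25). Mice 25, 20 (1.41) and 83 (1.27) stood above all others for Idi1, since the fourth highest reached only 0.60, and no mouse was 2-fold below the median.

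Sqle, squalene epoxidase, adds the first oxygen of the sterol branch, and Lss, lanosterol synthase, closes the ring system. Sqle ran from -1.80 (mouse 64) over a median of -0.09 to 3.51 (mouse 83), 12.2-fold above the median, with mice 20 (2.91) and 71 (2.14) next. In Sqle 8 of 103 mice were more than 2-fold above the median and 5 more than 2-fold below. Mouse 101 lay at the lower limit and has no value. The limit-rich arrays held the 3 lowest mice and mice 83 and 71, and without them the range was 2.74-fold. Lss ran from -0.51 (mouse 113) over a median of 0.11 to 1.05 (mouse 83), and no mouse was 2-fold from the median of this mean of 2 probes. Taken apart, the probes reached 1.59 (A, median 0.11) and 1.14 (B, median 0.06), each more than 2-fold above its median.

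Msmo1, an oxidase that removes methyl groups from the ring, Sc5d, a desaturase of the ring, and Dhcr7, the reductase of the last step, finish the molecule. Msmo1 ran from -0.84 (mouse 39) over a median of -0.11 to 1.63 (mouse 83) and 1.5 (mouse 25), with the next mouse at 0.78. Dhcr7 ran from -0.65 (mouse 36) over a median of 0.13 to 0.96 (mouse 25) and 0.92 (mouse 83), with no mouse 2-fold from the median. Sc5d had the opposite shape: a highest value of 1.02 (mouse 11), a median of 0.05 and a lowest of -2.22 (mouse 20), followed by -2.06 (mouse 26) and -1.90 (mouse 83). For Sc5d 11 mice lay more than 2-fold below the median and 0 above it, whereas Idi1, Msmo1 and Insig1 had 3, 2 and 5 mice above and 0 below.

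Insig1 retains the SREBP complex in the membrane and is itself an SREBP target, and Stard4 carries sterol between membranes. Insig1 ran from -1.12 (mouse 42) over a median of -0.17 to 1.76 (mouse 25) and 1.68 (mouse 51). Stard4 ran from -2.66 (mouse 15) over a median of -0.34 to 1.62 (mouse 25) and 1.08 (mouse 51). The same pair of mice led both genes. In both of these mice Sqle was above its median of -0.09 but far below its own highest values (0.59 in mouse 25, rank 12, and 0.32 in mouse 51).

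**Figure D1:**
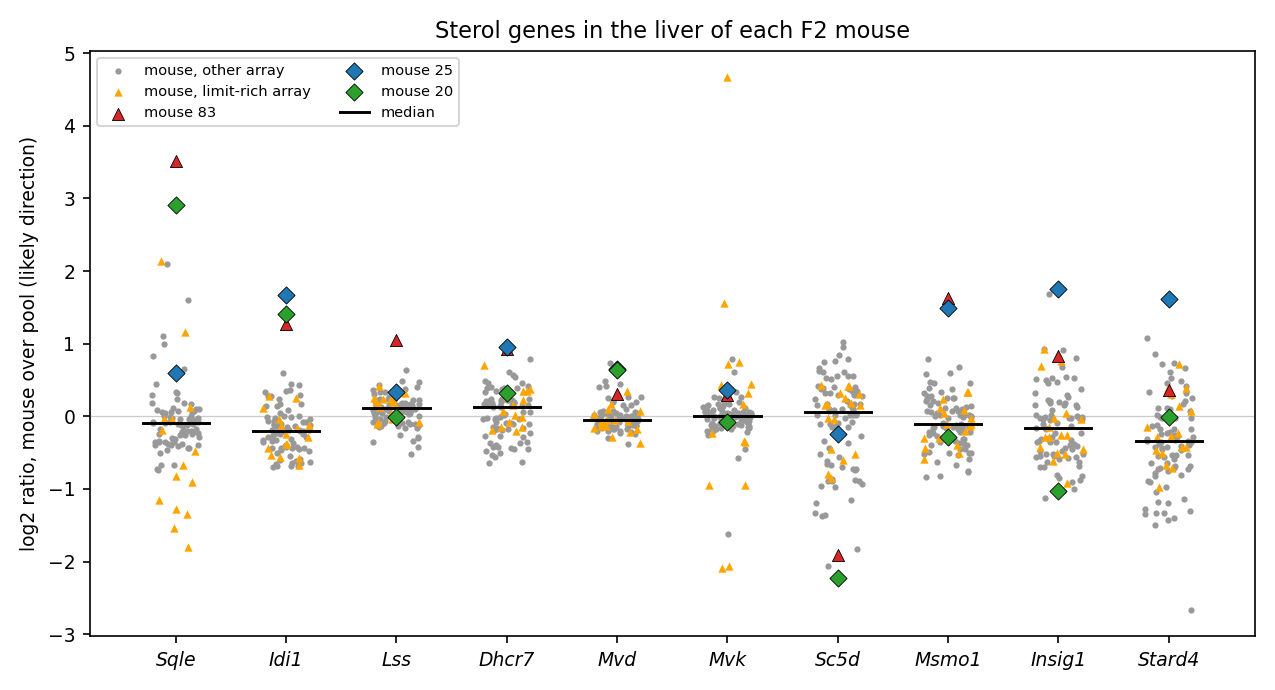
Each point is 1 mouse, and the vertical axis is the log2 ratio of mouse to pool in its likely direction for the 10 genes on the horizontal axis. Black bars are medians over mice, orange triangles are mice on limit-rich arrays, and the larger symbols are mice 83, 25 and 20, which stand at the top of Idi1, while mice 20 and 83 stand near the bottom of Sc5d.

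The 10 genes form 45 pairs. A pair was called where limma, fitted over all genes with 1 gene of the pair as covariate, gave an adjusted p (Benjamini-Hochberg over all genes) under 0.05 in both fits of the pair, and the larger p is printed. By this rule 12 pairs, 26.7%, were called positive, against 11.8% of all genes over the 10 fits, and 4 pairs, 8.89%, were called negative, against 12.5%. By ranks over mice 6 pairs (13.3%) were called positive against 12.5% of all genes, and 5 (11.1%) negative against 13.6%. The share of positive pairs was thus above the background for the ratios and close to it for ranks. Each share of all genes, here and in the counts per gene below, rests on a call in 1 fit. That is a looser rule than a call in both fits, so pairs and background are not like for like. The mean Pearson r over the 45 pairs was 0.0902 (jackknife SE over mice 0.0590), and 14 pairs had a Pearson r and a Spearman rho of opposite sign. In all, 9 pairs were called both ways, 5 positive and 4 negative.

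Gene by gene the calls were spread unevenly. Sqle was called positive with 4 of the 9 other genes and negative with 1, where 21.5% of all genes were called positive and 25.1% negative with it. Mvd was positive with 3 and negative with 1 (20.6% and 21.5% of all genes), and Dhcr7 also with 3 and 1 (10.3% and 8.54%). Msmo1 was positive with 4 and negative with 0 (16.0% and 14.4%), Idi1 with 3 and 0 (4.51% and 5.77%) and Insig1 with 3 and 0 (6.81% and 8.84%). Lss was positive with 2 and negative with 1 (6.77% and 8.03%), and Stard4 also with 2 and 1 (8.90% and 11.6%). Mvk was called with 0 genes (5.08% and 3.61%), and Sc5d was positive with 0 and negative with 3 (17.9% and 17.9%). Sqle and Mvd were called with a larger share of all genes than any of the other 8.

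Sqle and Mvd rose and fell together most firmly among the enzymes. Their r was 0.584 and their rho 0.418 over 103 mice (two-sided permutation p = 1e-05, the smallest that 100000 resamples can give, and 4e-05; limma adjusted p = 1.17e-08). Without the 2 mice farthest from the Sqle median, 83 and 20, r was 0.526. It was 0.607 on the 86 arrays and 0.697 on the 18 limit-rich arrays. Dhcr7 followed Mvd (r = 0.376, rho = 0.342, permutation p = 9e-05 and 4.7e-04, limma adjusted p = 0.00227), with r = 0.418 on the 86 arrays and 0.290 without mice 25 and 83. Sqle and Msmo1 were called both ways as well (r = 0.332, rho = 0.263, permutation p = 0.00151 and 0.00722, limma adjusted p = 0.00346), but without mouse 83 r fell to 0.171 with an adjusted p of 0.185, and on the 86 arrays it was 0.194.

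Insig1 and Stard4 were the closest pair of all 45. Their r was 0.648 and their rho 0.623 (both permutation p = 1e-05, the smallest possible; limma adjusted p = 7.93e-10, n = 104). Without mice 25 and 51, which lead both genes, r was 0.578, and it was 0.637 on the 86 arrays and 0.774 on the limit-rich ones. Both genes parted from Dhcr7. Dhcr7 and Stard4 were called negative (r = -0.276, rho = -0.324, permutation p = 0.00467 and 8.1e-04, limma adjusted p = 0.0279), and r was -0.438 without mice 25 and 83. Leaving out mouse 15, the lowest for Stard4, gave r = -0.217 and an adjusted p of 0.118, and the call was also lost without mouse 28 (adjusted p = 0.0502) or mouse 36 (0.0568). Dhcr7 and Insig1 were called negative by rank alone (rho = -0.328, r = -0.232, permutation p = 7.8e-04 and 0.0176; limma adjusted p = 0.00824 on ranks and 0.0831 on ratios). Sqle with Insig1 (r = -0.0429) and with Stard4 (r = -0.0411) was not called in either way.

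**Figure D2:**
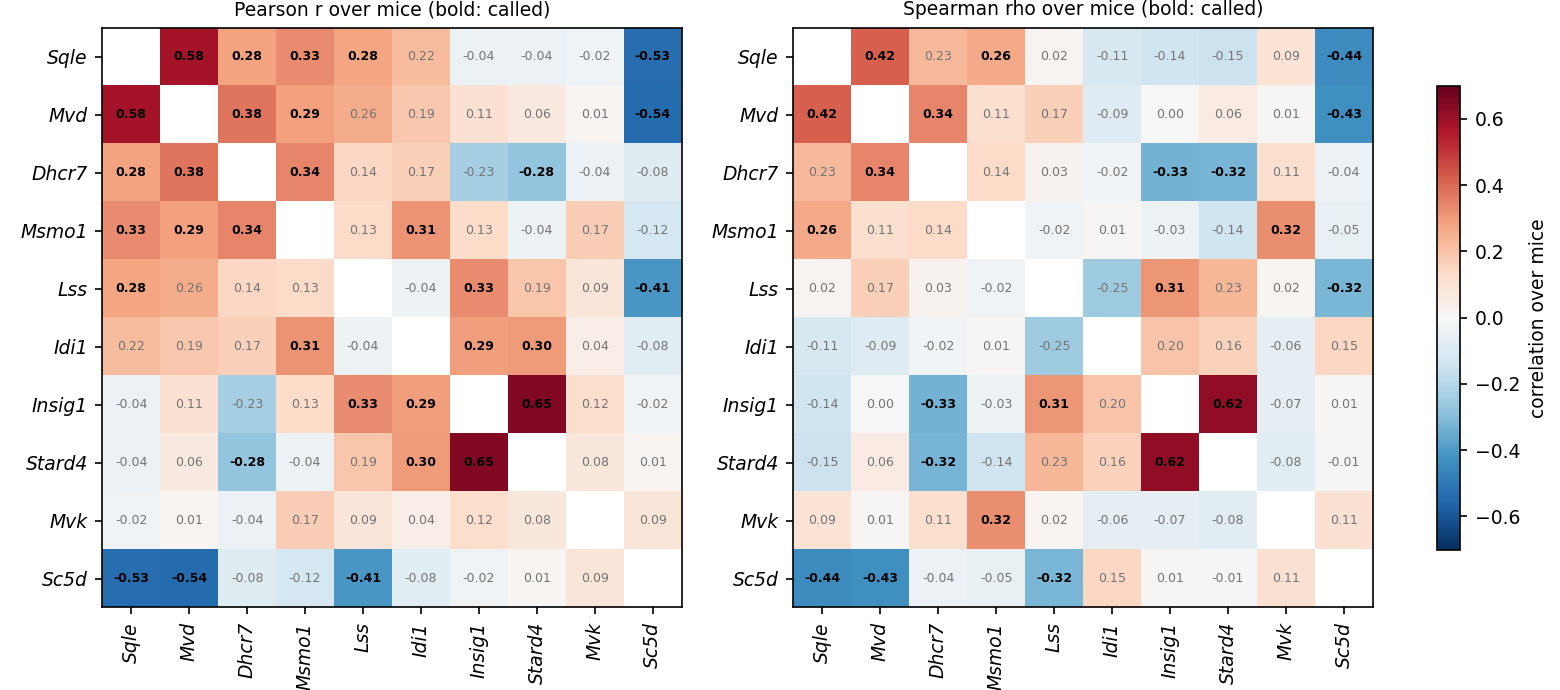
Each cell is the correlation over mice of the gene in the row with the gene in the column, Pearson r on the left and Spearman rho on the right, on a colour scale from blue (negative) to red (positive). Called pairs are in bold: Insig1 with Stard4 and Sqle with Mvd stay red in both, Sc5d is blue with Sqle, Mvd and Lss in both, and Idi1 has bold pairs on the left alone.

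The other 7 positive pairs were called for ratios and not for ranks: Sqle with Lss and Dhcr7, Idi1 with Msmo1, Insig1 and Stard4, and Msmo1 with Dhcr7 and Mvd. Idi1 and Msmo1 are the plainest case. Their r was 0.313 and their rho 0.00559 (permutation p = 0.00233 and 0.955, limma adjusted p = 0.0197 for ratios), and r was 0.174 without mouse 25 and 0.198 without mouse 83 (limma adjusted p = 0.264 and 0.190). Idi1 with Insig1 (r = 0.292) and with Stard4 (r = 0.299) lost their calls without mouse 25, at r of 0.165 and 0.192 (limma adjusted p = 0.299 and 0.204). The call for Idi1 and Insig1 was also lost without mouse 51 (adjusted p = 0.0552) or mouse 83 (0.0735). Sqle and Lss had r = 0.277 and rho = 0.0209, and r fell to 0.0927 without mouse 83 (limma adjusted p = 0.602). Its adjusted p was 0.0539 without mouse 15, 0.0530 without mouse 26 and 0.0700 without mouse 120. Sqle and Dhcr7 (r = 0.279, rho = 0.225) fell to r = 0.184 without mouse 83 and 0.243 without mouse 15 (limma adjusted p = 0.180 and 0.0675). Mvd and Msmo1 (r = 0.287, rho = 0.111) fell to 0.191 without mouse 25 (limma adjusted p = 0.130). Dhcr7 and Msmo1 (r = 0.340, rho = 0.135, limma adjusted p = 0.00545) kept the call without any 1 of the 28 mice left out in turn. These 28 were the 2 highest and the 2 lowest mice of each gene.

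Mvk was called with none of the other 9 genes for ratios, where 5.08% of all genes were called positive and 3.61% negative with it, so that 0 of 9 is near the background. By rank it was called with Msmo1 alone (rho = 0.324, permutation p = 7.5e-04, limma adjusted p = 0.0365 on ranks; r = 0.170). Its r with Msmo1 was 0.333 on the 86 arrays and 0.137 on the limit-rich ones, and without mouse 106 alone it was 0.306.

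The same few mice led several genes. The 5 highest mice of each gene make 50 places, which 30 mice filled, and 4 mice held 3 or more. Mouse 25 held 6 (Idi1, Dhcr7, Mvd, Msmo1, Insig1, Stard4), mouse 83 held 5 (Sqle, Idi1, Lss, Dhcr7, Msmo1), mouse 15 held 4 (Sqle, Dhcr7, Mvd, Msmo1) and mouse 20 held 3 (Sqle, Idi1, Mvd). The arrays of these mice were unlike in values at the limits: that of mouse 83 held 1307, those of mice 25, 20 and 15 held 4, 8 and 14. The log2 SD over probes was 0.84 on the array of mouse 83, 0.80 on that of mouse 20 and 0.65 on that of mouse 15. It was 0.42 on that of mouse 25, against a median of 0.43 over arrays. The 4 mice were also unlike in their genes. Mouse 25 was the highest of all for Insig1 and Stard4, whereas mouse 15 was the lowest for Stard4, and mouse 20 ranked 102 of 104 for Insig1. Idi1 was high in mice 25, 83 and 20 but low in mouse 15 (-0.62).

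Beyond the 10 genes these mice differed as well. The mean log2 ratio of 10 fatty acid synthesis genes was the highest of all mice in mouse 25 (0.82) and among the 3 lowest in mouse 20 (-1.15). The mean of 4 other sterol enzymes was highest in mouse 83 (0.56), also high in mouse 25 (0.45, rank 3) and lowest in mouse 20 (-1.32). Mouse 20 also had the highest mean of 5 proliferation genes (3.62, median over mice -0.36) and the second highest of 5 neutrophil genes (2.78, median -1.20). The mean of 5 bile duct genes was highest in mouse 15 (2.61, median -0.92). The part of these other signals in the sterol values of the same mice was not tested.

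Without mice 20, 25 and 83, chosen after their values were seen, 3 of the 12 positive pairs were still called: Sqle with Mvd (r = 0.521), Dhcr7 with Mvd (0.278) and Insig1 with Stard4 (0.621). All 4 negative pairs were still called, and 4 further pairs were then called negative: Sqle with Idi1 (r = -0.250), Idi1 with Lss (-0.339), Dhcr7 with Insig1 (-0.424) and Msmo1 with Stard4 (-0.248). The mean r over the 45 pairs was then -4.91e-04, so that pairs above and below 0 balanced. Leaving out mice picked for high values lowers, by itself, the correlations among the genes they were high in. The lost calls, the new negative pairs and the lower mean r therefore cannot be told apart from that choice. Without the limit-rich arrays 6 of the 12 positive and 4 of the 4 negative pairs were still called. Leaving out single mice, mouse 83 took the number of positive pairs from 12 to 7 and mouse 25 to 8.

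**Figure D3:**
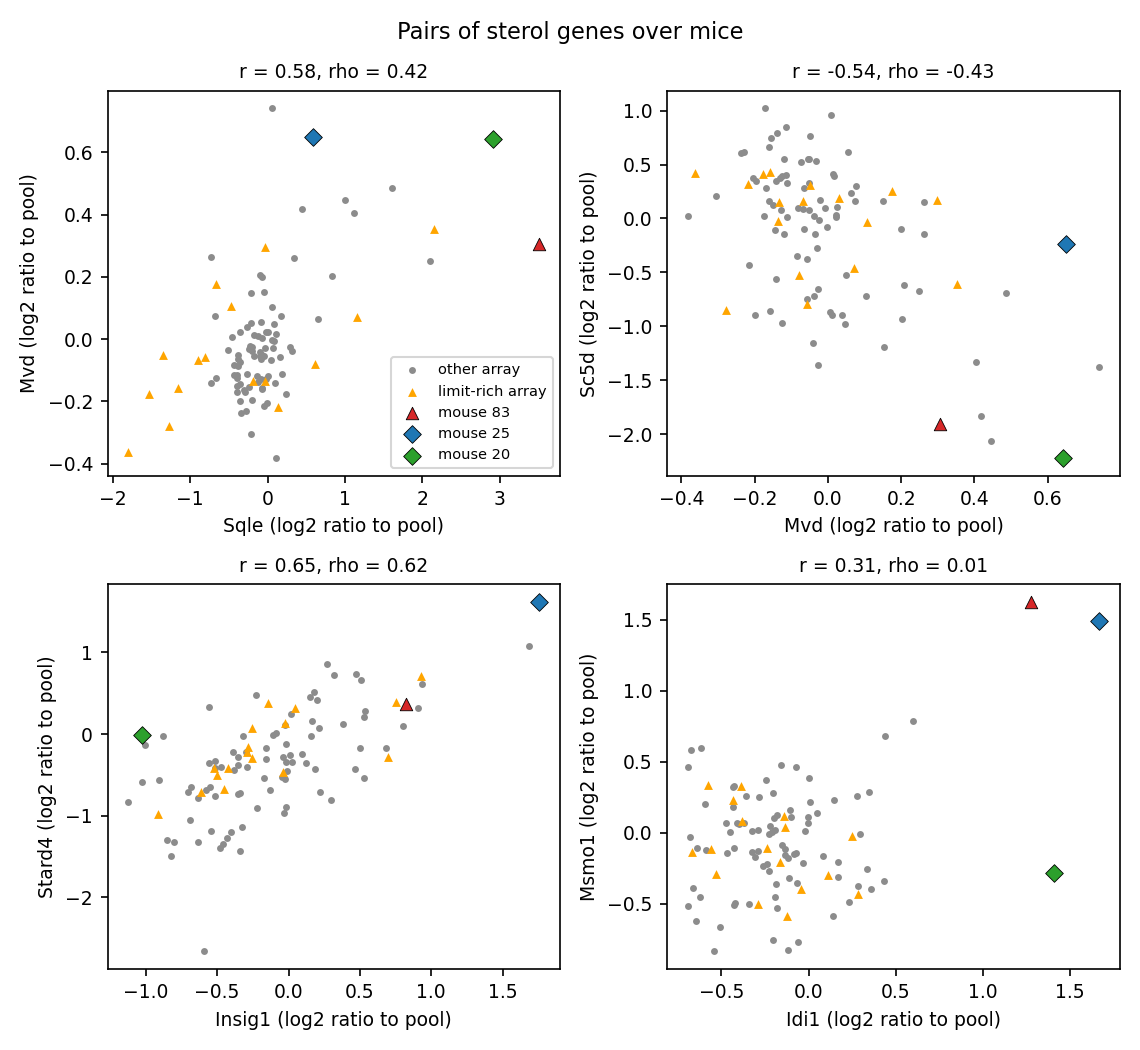
Each panel plots the log2 ratio to the pool of 1 gene against another, with 1 point per mouse, orange triangles for limit-rich arrays and larger symbols for mice 83, 25 and 20. Sqle with Mvd (r = 0.584), Mvd with Sc5d (r = -0.540) and Insig1 with Stard4 (r = 0.648) show a trend over most mice, whereas in Idi1 with Msmo1 (r = 0.313) mice 83 and 25 lie apart at the upper right.

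Sc5d, the desaturase, ran against Sqle, Mvd and Lss and alongside none of the 10 genes. It was called negative with 3 of the 9 other genes, Sqle, Mvd and Lss, and positive with 0, where 17.9% of all genes were called positive and 17.9% negative with Sc5d. Its mean r with the 9 was -0.188 (jackknife SE 0.0629). With Mvd r was -0.540 and rho -0.428 (permutation p = 1e-05, the smallest possible, and 2e-05; limma adjusted p = 2.03e-07, n = 104), and r was -0.543 without mice 138 and 25. With Sqle r was -0.531 and rho -0.440 (both permutation p = 1e-05, the smallest possible; limma adjusted p = 2.10e-07, n = 103), and r was -0.394 without mice 83 and 20. With Lss r was -0.410 and rho -0.322 (permutation p = 3e-05 and 0.00113, limma adjusted p = 5.27e-04), and r was -0.334 without mice 83 and 113.

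These 3 relations had the same sign in both sets of arrays. On the 86 arrays r of Sc5d was -0.565 with Mvd, -0.536 with Sqle and -0.372 with Lss, and on the 18 limit-rich arrays it was -0.403, -0.724 and -0.652, where none of the 3 was called with 18 mice. The 3 calls held without any 1 of the 28 mice left out in turn, and without mice 20, 25 and 83 together (r = -0.492, -0.394 and -0.378). The lowest mice for Sc5d show the pattern in part: mouse 20 ranked 2 for Sqle and 3 for Mvd, mouse 26 ranked 5 for Mvd and 5 for Lss, and mouse 83 ranked 1 for Sqle and 1 for Lss. Mouse 83 ranked 9 for Mvd, mouse 26 was not among the 5 highest for Sqle, and mouse 20 was not among the 5 highest for Lss. Without mouse 20 alone r of Sc5d with Lss was farther from 0, at -0.447. The course was not shared by the whole pathway. Sc5d with Idi1 (r = -0.0762, rho = 0.145), Dhcr7 (-0.0829 and -0.0433), Mvk (0.0852 and 0.108), Msmo1 (-0.123 and -0.0510), Insig1 (-0.0237 and 0.00715) and Stard4 (0.0135 and -0.00661) was not called, and Dhcr7, which acts on the product of Sc5d, was among these.

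Lss and Insig1 were called positive both ways (r = 0.329, rho = 0.308, permutation p = 7.2e-04 and 0.00171, limma adjusted p = 0.0109), with r = 0.258 without mice 83 and 113. On the 86 arrays r was 0.271 and the pair was not called. The 2 Lss probes, whose mean stands for the gene, did not follow each other. Probe A, of sequence AK014742, and probe B, of sequence AK012813, had r = -0.0963 and rho = -0.176 over 104 mice (permutation p = 0.328 and 0.0724). Probe A was positive with Insig1 (r = 0.462, rho = 0.441, both permutation p = 1e-05, the smallest possible) and Msmo1 (r = 0.336, rho = 0.223, permutation p = 7e-04 and 0.023). Probe B had r = -0.102 with Insig1 (permutation p = 0.30). With Msmo1 it had r = -0.249 and rho = -0.370 (permutation p = 0.0114 and 7e-05). Both were negative with Sc5d for ratios (r = -0.332 for A and -0.208 for B, permutation p = 6.6e-04 and 0.0334). By rank rho with Sc5d was -0.242 for A and -0.142 for B (permutation p = 0.0135 and 0.151). The relation of Lss to Insig1 therefore rests on probe A, while that to Sc5d had the same sign in both and was weaker for probe B. These are 18 relations to other genes beside that between the probes, without adjustment for their number, and which probe reports Lss transcripts was not tested.

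The rest of the pathway divided along the same lines. Of 12 other sterol enzymes listed, 4 were measured: Pmvk, Tm7sf2, Hsd17b7 and Ebp. With Mvd 0 of 4 were called positive and 3 negative (median r = -0.482, against -0.0232 over all genes), and with Sqle also 0 and 3 (median r = -0.356, against -0.0411). With Sc5d 3 of 4 were called positive and 0 negative (median r = 0.351, against 0.0186). Among all genes 20.6% were called positive and 21.5% negative with Mvd, and 21.5% and 25.1% with Sqle. Ebp, an isomerase shortly before Sc5d in the chain, had r = 0.577 with Sc5d, -0.569 with Mvd and -0.477 with Sqle (limma adjusted p = 1.02e-08, 7.08e-09 and 3.94e-06). Tm7sf2, a ring reductase, had r = 0.418 with Sc5d and -0.491 with Mvd, and Hsd17b7, a ketone reductase, 0.284 and -0.473. Tm7sf2 was also called positive with Insig1 (r = 0.427) and Stard4 (r = 0.475). Pmvk, which acts between Mvk and Mvd, was called with Msmo1 only.

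Fatty acid synthesis genes, several of them known targets of the related factor SREBP1, varied with Insig1 and Stard4. Of 10 measured fatty acid synthesis genes 7 were called positive with Insig1 and 8 with Stard4, and 0 negative with either, where 6.81% and 8.90% of all genes were called positive and 8.84% and 11.6% negative. The median r over the list was 0.379 with Insig1, against 0.0105 over all genes. Srebf1, which encodes SREBP1, had r = 0.629 with Insig1 and 0.604 with Stard4 (rho = 0.597 and 0.602; limma adjusted p = 3.59e-09 and 2.29e-08). Thrsp, a lipogenic nuclear protein, had r = 0.511 and 0.45, and Mlxipl, the glucose-responsive factor ChREBP, 0.439 and 0.371. Of the same list Sqle had 0 positive and 6 negative and Mvd 0 and 5, with Mlxipl at r = -0.601 and -0.498. Of 5 measured regulators and further targets of SREBP2, 2 were called positive and 1 negative with Insig1, and 3 and 1 with Stard4. The negative gene was Insig2, the second INSIG protein of the liver (r = -0.623 with Stard4, rho = -0.619, limma adjusted p = 4.45e-09). Npc1, which moves cholesterol out of lysosomes, had r = 0.421 with Stard4 and 0.336 with Lss. Of 11 clock genes 6 were called positive and 2 negative with each of Insig1 and Stard4, among them Per2 (r = 0.538 and 0.50) and Usp2 (0.537 and 0.508), and the hour of sampling was not given in the sources used here.

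Genes of bile acid synthesis, which consumes cholesterol, varied with Sc5d and against Mvd and Sqle. Of 9 measured genes of bile acid synthesis 8 were called positive with Sc5d, 8 negative with Mvd and 7 negative with Sqle, with median r of 0.476, -0.538 and -0.439. Over all genes 17.9% were called positive with Sc5d, 21.5% negative with Mvd and 25.1% negative with Sqle. Hsd3b7, an early enzyme of the pathway, had r = 0.622 with Sc5d, -0.691 with Mvd and -0.614 with Sqle (limma adjusted p = 3.75e-10, 3.12e-13 and 6.74e-10). Cyp7b1, a hydroxylase of the alternative route, had r = 0.538, -0.579 and -0.514, and Baat, which joins bile acids to amino acids, 0.564, -0.538 and -0.439. Cyp7a1, the rate-limiting enzyme, was called positive with Sc5d (r = 0.328, rho = 0.417) and negative with Mvd (-0.236) and Lss (-0.30). Of 7 measured genes of sterol export and LXR 4 were positive and 1 negative with Sc5d, against 17.9% of all genes in each direction, and the exporters among them did not go one way. Abcg5 and Abcg8 were called positive with Sc5d for ratios and not for ranks, Abcg1 was called negative and Abca1 was not called. Nr1h3, the sterol receptor LXR alpha, had r = 0.572 with Sc5d and -0.549 with Sqle, and Abcg1 had the reverse signs (-0.329 and 0.310). Mvk was called with 0 genes of these lists, where 5.08% and 3.61% of all genes were called positive and negative with it.

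**Figure D4:**
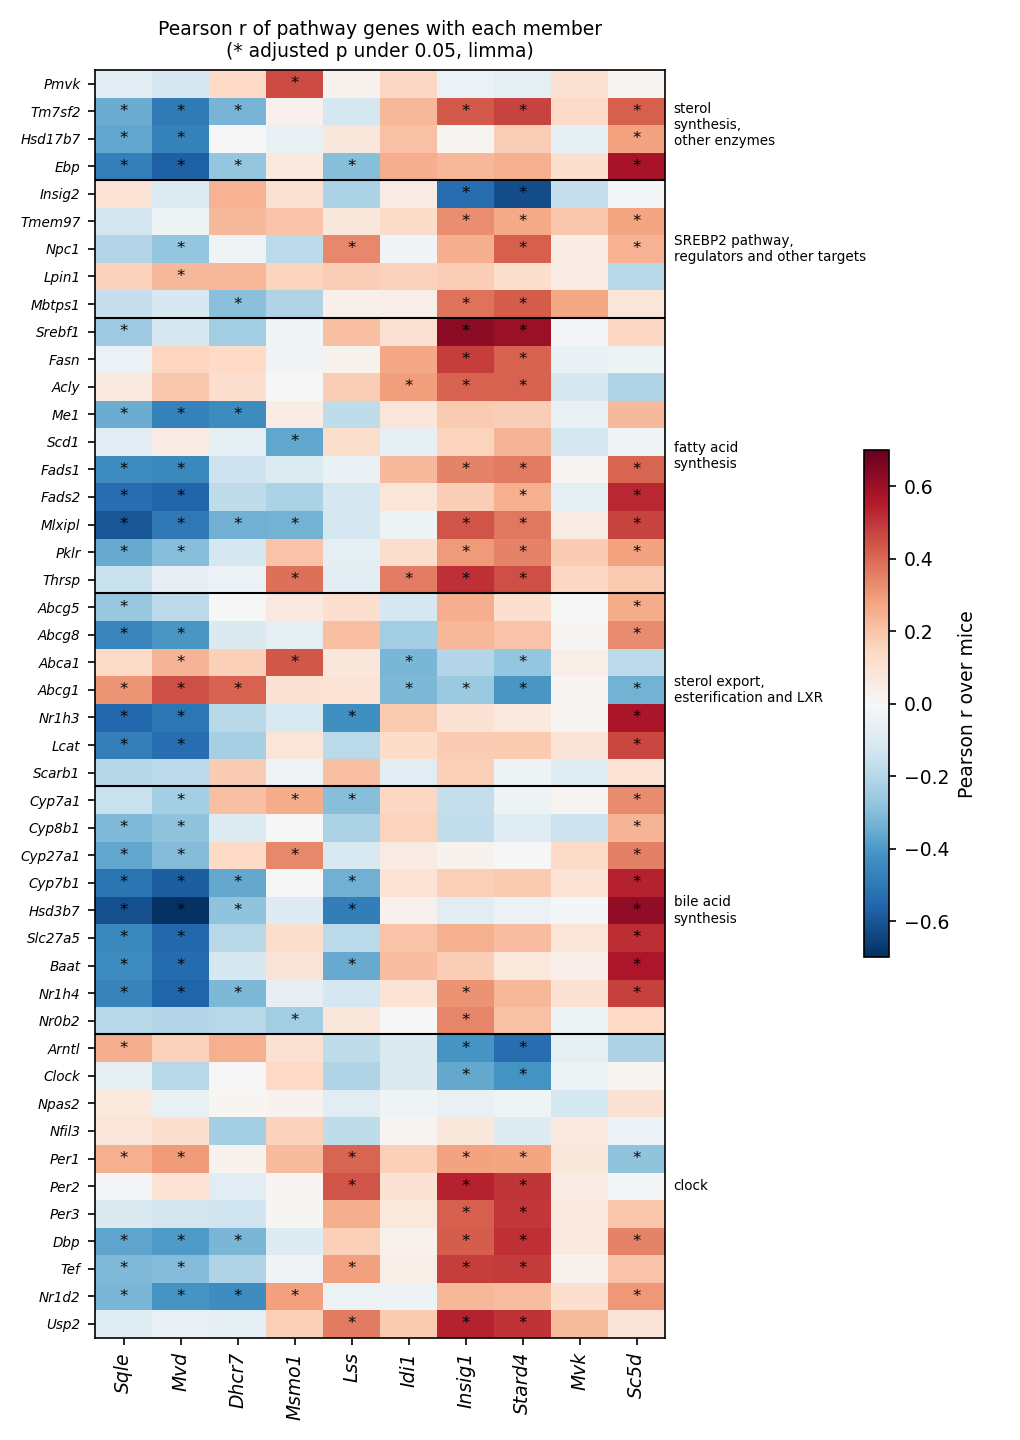
Each cell is Pearson r over mice between a pathway gene (vertical axis, grouped by list) and 1 of the 10 genes (horizontal axis), with a star where the limma adjusted p was under 0.05. The bile acid block is blue under Sqle and Mvd and red under Sc5d, and the fatty acid block is red under Insig1 and Stard4.

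Markers of other liver cell types moved with the same genes. Of 5 bile duct genes 5 were called positive with Sqle and 5 with Mvd and 5 negative with Sc5d, and the same counts held for 5 neutrophil and for 5 proliferation genes. Over all genes 21.5% were called positive with Sqle, 20.6% with Mvd and 10.3% with Dhcr7, and 17.9% were called negative with Sc5d, 8.84% with Insig1 and 11.6% with Stard4. Of 6 stellate cell and fibroblast genes 5 were positive with Sqle, 5 with Mvd and 5 with Dhcr7, and 4 were negative with Sc5d and 5 with Stard4. Of 8 macrophage genes 6, 7 and 6 were positive with Sqle, Mvd and Dhcr7, and 5, 6 and 7 negative with Sc5d, Insig1 and Stard4. The other way, 1 macrophage gene was negative with Sqle, 1 negative with Mvd and 1 positive with Sc5d. Ratios to a pool give no absolute level, so the tissue label was not checked by the presence of its markers. Of 7 hepatocyte genes 0 were positive and 2 negative with Sqle and with Mvd, and 2 positive and 0 negative with Sc5d, which is near the shares of all genes (25.1% and 21.5% negative, 17.9% positive). With Msmo1 4 of the 7 were negative (14.4% of all genes), with Lss 2 (8.03%) and with Dhcr7 1 (8.54%), each with 0 positive. With Stard4 2 were positive and 0 negative (8.90% positive), and with Idi1, Mvk and Insig1 0 were called. Over mice the mean of the bile duct list ran from -1.75 to 2.61, that of the macrophage list from -1.81 to 1.32 and that of the stellate list from -2.35 to 1.57. In whole liver, fewer cells of a type and less RNA per cell cannot be told apart, and the part of these cells in the sterol relations was not tested. Of 5 measured pancreatic acinar genes 0 were called with Sqle, Mvd or Sc5d.

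The genes most alike to each sterol gene were named by Pearson r over mice, among genes called both for ratios and for ranks. Sc5d had Bco2, a carotenoid-cleaving enzyme (r = 0.831, rho = 0.845), and Nxpe2 (0.704 and 0.728), and on the negative side Ppm1d (r = -0.653). Mvd had Asf1b, a histone chaperone (r = 0.705), and Nup93, a nuclear pore protein (0.687), and on the negative side Aldh3a2, a fatty aldehyde dehydrogenase (-0.758). Sqle had Ezr, ezrin (r = 0.726), and Pik3ip1 (0.713), against Cyp2d13 (-0.687). Dhcr7 had Pdlim1 (r = 0.646) and Cyp4f16 (0.573), against Pgf (-0.569), and Msmo1 had Cript and Nedd1 (both 0.726), against Entpd6 (-0.634). Lss had Nfx1 and the clock gene Cry2 (both 0.601), against Nudt1 (-0.635), and Idi1 had Dntt (0.574) and Dus4l (0.516), against Btc (-0.577). For Insig1 these were Stard4 and Srebf1, against Kifap3 (r = -0.559), and for Stard4 Hes6 (0.656) and Insig1, against Insig2. Mvk had Grm8 (r = 0.862, rho = 0.422, n = 99) and Pid1 (0.752 and 0.440, n = 95), against 6620401J10Rik (-0.562 and -0.326). The spread of Mvk was set by few limit-rich arrays, and how far these r rest on those arrays was not tested.

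The closest genes to Sc5d were also near it on the chromosome. Bco2 lies 8.28 Mb and Nxpe2 6.07 Mb from Sc5d on chromosome 9 of GRCm38.p6, and of the 20 genes most alike to Sc5d 4 were on chromosome 9, which holds 5.72% of the placed genes. The relation of Sc5d to Bco2 had r = 0.862 on the 86 arrays and 0.655 on the limit-rich arrays. Within 10 Mb of Sc5d 20.9% of 158 genes were called positive, close to the 17.9% of all genes. Msmo1 was positive with Klhl2 at 0.0216 Mb (r = 0.464) and Tmem192 at 0.229 Mb (r = 0.561), which were chosen after their values were seen. Within 10 Mb of Msmo1 12.5% of 104 genes were called positive and 21.2% negative, against 16.1% and 14.3% of all placed genes. Such neighbours were not particular to Sc5d and Msmo1. Sqle had r = 0.532 with Nsmce2 at 0.0591 Mb, and Mvd 0.609 with Cdt1 at 0.134 Mb, also chosen after their values were seen. Within 10 Mb 23.4% of genes were called positive with Sqle and 18.5% with Mvd, against 21.6% and 20.7% of all placed genes. Near Lss the share was above the background: 13.4% of 187 genes within 10 Mb were called positive, against 6.76% of all placed genes. The cause was not tested. Mvd and Msmo1 share chromosome 8 but lie 57.7 Mb apart.

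The levels of 1 gene moved with the number of the mouse, whose meaning the labels do not give. Idi1 fell with mouse number (r = -0.271, rho = -0.30, limma adjusted p = 0.0414), where 13.2% of all genes were called in either direction. Sc5d had r = -0.210 and rho = -0.318 and was not called (limma adjusted p = 0.140).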

How the data were processed

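Per the labels, each liver sample was hybridised against the common pool, and the deposited values, 1 per probe and array, were used as log10 ratios. Which dyes, scanner or normalization were used is not given in the sources used here. Values at the limits (1.08%) were treated as not measured, and a further 1.69% were missing. A probe needed values on 90% of arrays, which 20633 of 23536 reached. Probes with a single symbol in the platform annotation (14744, of which 13238 were kept) were averaged per gene, and symbols were updated through the gene table of GRCm38.p6. Array SDs over probes ran from 0.24 to 1.41 log2.

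Each of the 10 genes was the covariate of a fit over all genes (limma 3.58.1 in R 4.3.3, Benjamini-Hochberg adjustment over the genes of a fit), and on ranks beside it. Permutation tests (numpy 2.4.6, 100000 resamples) were two-sided. On simulated data of 12315 genes and 104 mice, 54% of true relations of r = 0.3 and 98% of those of r = 0.5 were called, and 7.61% of calls were false. Whether these shares hold for the measured ratios, where a few mice lay far from the rest in some genes, was not tested. A replicate is 1 mouse. Mice with a gene missing were dropped from its fit.

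The genes and lists were chosen with earlier results of these data known. Named beside the 10 genes were, per gene, the 2 of largest positive and the 1 of largest negative r called both ways, and listed genes called with at least 3 of the 10, with exceptions stated. Alternatives covered arrays, ranks, limits, scaling, probes and high mice, and those on single mice, mice 20, 25 and 83, mouse number and Lss probes were added after seeing the data.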

Additional observations from a re-analysis of the deposited data

How the results depend on the processing

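Of the 4 summary values of the sterol pairs, the number of negative pairs (4) moved least and the number of positive pairs (12) most. Positive pairs numbered 7 without the limit-rich arrays, 6 by ranks, 4 by ranks without the limit-rich arrays, 7 with arrays divided by their robust spread, 5 with each gene limited to its 5th to 95th percentile, and 4 and 2 without the 3 and the 10 mice of highest mean score. On the 18 limit-rich arrays alone 1 positive and 0 negative pairs were called, with fewer mice. Without mice 20, 25 and 83 there were 3 positive and 8 negative pairs. The score is the mean of the standardised values of the 10 genes. Leaving out its highest mice, like leaving out mice 20, 25 and 83, therefore lowers pair correlations by itself. The mean r over pairs (0.0902) changed sign without the 3 highest mice (-0.00946), without the 10 highest (-0.0235) and without mice 20, 25 and 83 (-4.91e-04), and was 0.0220 by ranks, 0.00855 by ranks without the limit-rich arrays and 0.188 on those arrays alone. The mean r of Sc5d (-0.188) stayed below 0 under each of these: -0.115 by ranks, -0.104 by ranks without the limit-rich arrays, -0.121 with arrays divided by their spread, -0.0547 without the 10 highest mice, -0.101 without mice 20, 25 and 83, and -0.393 on the limit-rich arrays alone. With 1 of 28 extreme mice left out at a time, positive pairs ranged from 7 to 13, negative pairs from 3 to 5, the mean r from 0.0464 to 0.0974 and that of Sc5d from -0.195 to -0.133. The limit-rich arrays as a block, values at the limits kept, the first principal component removed, 1 probe per gene, probes measured on every array and mouse number as a covariate moved none of the 4 by more than the stated margins, but with the first component removed 6 of the 12 positive pairs and 3 of the 4 negative ones were still called. The margins are 1.5 times for a count and 1 jackknife SE for a mean r. Probes measured on every array leave out Sqle and Mvk. Single uncalled relations of Sc5d changed sign: with Idi1 to 0.0290 without the limit-rich arrays, 0.145 by ranks, 0.220 without mice 20, 25 and 83 and 0.0657 without its 2 farthest mice; with Dhcr7 to 0.00191 without the limit-rich arrays and 0.0166 without those 3 mice; with Insig1 to 0.00726 and 0.00715 without the limit-rich arrays and by ranks; with Stard4 to -0.0499 on the limit-rich arrays alone and -0.00661 by ranks. Except for fewer mice or genes, the cause of these changes was not tested. Over the 5 sterol and lipid lists 58 of 350 relations were called positive and 65 negative, where 11.8% and 12.5% of all genes were called over the 10 fits. By ranks these were 73 and 66 of 350, against 12.5% and 13.6% of all genes. Without the limit-rich arrays they were 58 and 71. No paired analysis was possible because all mice form 1 group. Signal over background was not analysed here.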
